A study of Bos taurus with 6 samples.

Results

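The immediate early genes described here are ATF3 (Entrez gene 515266), FOS (280795), FOSB (540819), FOSL2 (509889), JUN (280831), JUND (517192), EGR1 (407125), IER2 (525380) and IER3 (505455). They were taken as every probe set that the array annotation assigns to one of these 9 symbols, which gave 22 of the 24016 probe sets analysed, and all 9 genes were present. JUN had 5 probe sets, FOSL2, JUND and IER2 had 3 each, FOS, FOSB and EGR1 had 2 each, and ATF3 and IER3 had 1 each. The probe sets of a gene are numbered here by their mean signal, brightest first. The cells were primary bovine aortic endothelial cells, freed from the aorta with collagenase and grown in RPMI medium. In the treated group, 3 cultures received TGF-beta 1 at 5 ng/ml for 24 hours. In the basal group, 3 cultures received no treatment. The labels speak of triplicates from separate cultures but name no animals. The p-values set the difference between the groups against the spread of arrays within a group, which may be technical variation. They therefore do not speak for other animals.

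Immediate early genes are switched on within minutes of a growth factor, cytokine or stress signal, without new protein synthesis, largely by MAP kinases acting on factors already bound at their promoters. Most of their transcripts are short-lived and fade before the slower target genes reach their peak. FOS, FOSB and FOSL2 encode Fos proteins that must pair with a Jun protein such as JUN or JUND to bind DNA as AP-1. ATF3 is a stress-inducible protein of the same leucine zipper class, which in human epithelial cells joins SMAD3 to repress ID1 after TGF-beta. EGR1 is a zinc finger factor induced in endothelium by growth factors and injury. IER2 is a nuclear regulator of transcription, while IER3 is better known as a stress-inducible regulator of cell survival than as a DNA-binding factor, so the name transcription factor fits it least. The comparison asks how these genes stood after a full day of TGF-beta 1, long after the first wave of induction.

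The arrays did not separate by treatment alone, which bears on every value below. On the first principal component of all other probe sets, with 63.4% of the variance, basal 1, basal 2 and treated 1 lay at -67.7, -38.8 and -10.3, while basal 3, treated 2 and treated 3 lay at 36.0, 39.4 and 41.3. These 2 sets of arrays were defined from the data, not from the labels. Where differences within the sets are given, the first compares treated 1 with the mean of basal 1 and basal 2, and the second compares the mean of treated 2 and treated 3 with basal 3. On the second component, with 24.7% of the variance, treated 1 stood apart at 48.0 and basal 3 at -38.2. Treated 1 also correlated more closely over probe sets with treated 2 and treated 3 (0.9771 and 0.9753) than with basal 2 and basal 1 (0.9745 and 0.9632). With basal 3 it was lowest (0.9546), so these correlations do not by themselves place treated 1 in a set. Its deviations from the group mean correlated at 0.67 and 0.54 with those of basal 1 and basal 2, and at -0.78 with those of basal 3. Of 9 endothelial markers measured, 8 lay above the array median on all 6 arrays, and KDR, the main VEGF receptor, lay below it. Of 6 smooth muscle markers 4 lay above the array median on all 6 arrays and none lay below the 25th percentile on all 6. Of 6 leukocyte markers 5 lay below the array median on all 6 arrays. Of 6 fibroblast markers 2 lay above the array median on all 6 arrays, and LUM and DPT lay below the 25th percentile throughout.

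After 24 hours of TGF-beta 1 none of the 22 probe sets passed the test over the whole array. By limma, with Benjamini-Hochberg adjustment over the 24016 probe sets, 0 of 22 had an adjusted p under 0.05, where 0.658% of all probe sets did, and their adjusted p lay between 0.139 and 0.998. At an unadjusted p under 0.05 stood 6 of the 22, or 27.3%, against 13.7% of all probe sets. The genes were chosen with earlier results of these data known, so this count is no independent test. The 6 were those of ATF3 and IER3, 1 of EGR1, 1 of JUN and 2 of JUND. The 3 treated arrays lay apart from the 3 basal arrays in 6 of 22, where 19.2% of all probe sets did so. In 3 of these the treated arrays were the higher ones (ATF3, EGR1 probe set 1 and FOSB probe set 2), beside 7.61% of all probe sets. In the other 3 they were the lower ones (IER3, JUN probe set 3 and JUND probe set 2), beside 11.6%. Counting probe set 1 of each gene, the groups were apart in 3 of 9 genes, where they were in 23.3% of all genes. The median log2 difference of the 22 was -0.06, beside -0.01 over all probe sets. With 3 arrays against 3 an exact permutation test of a single probe set cannot give a two-sided p below 0.1, so none is given.

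**Figure D1:**
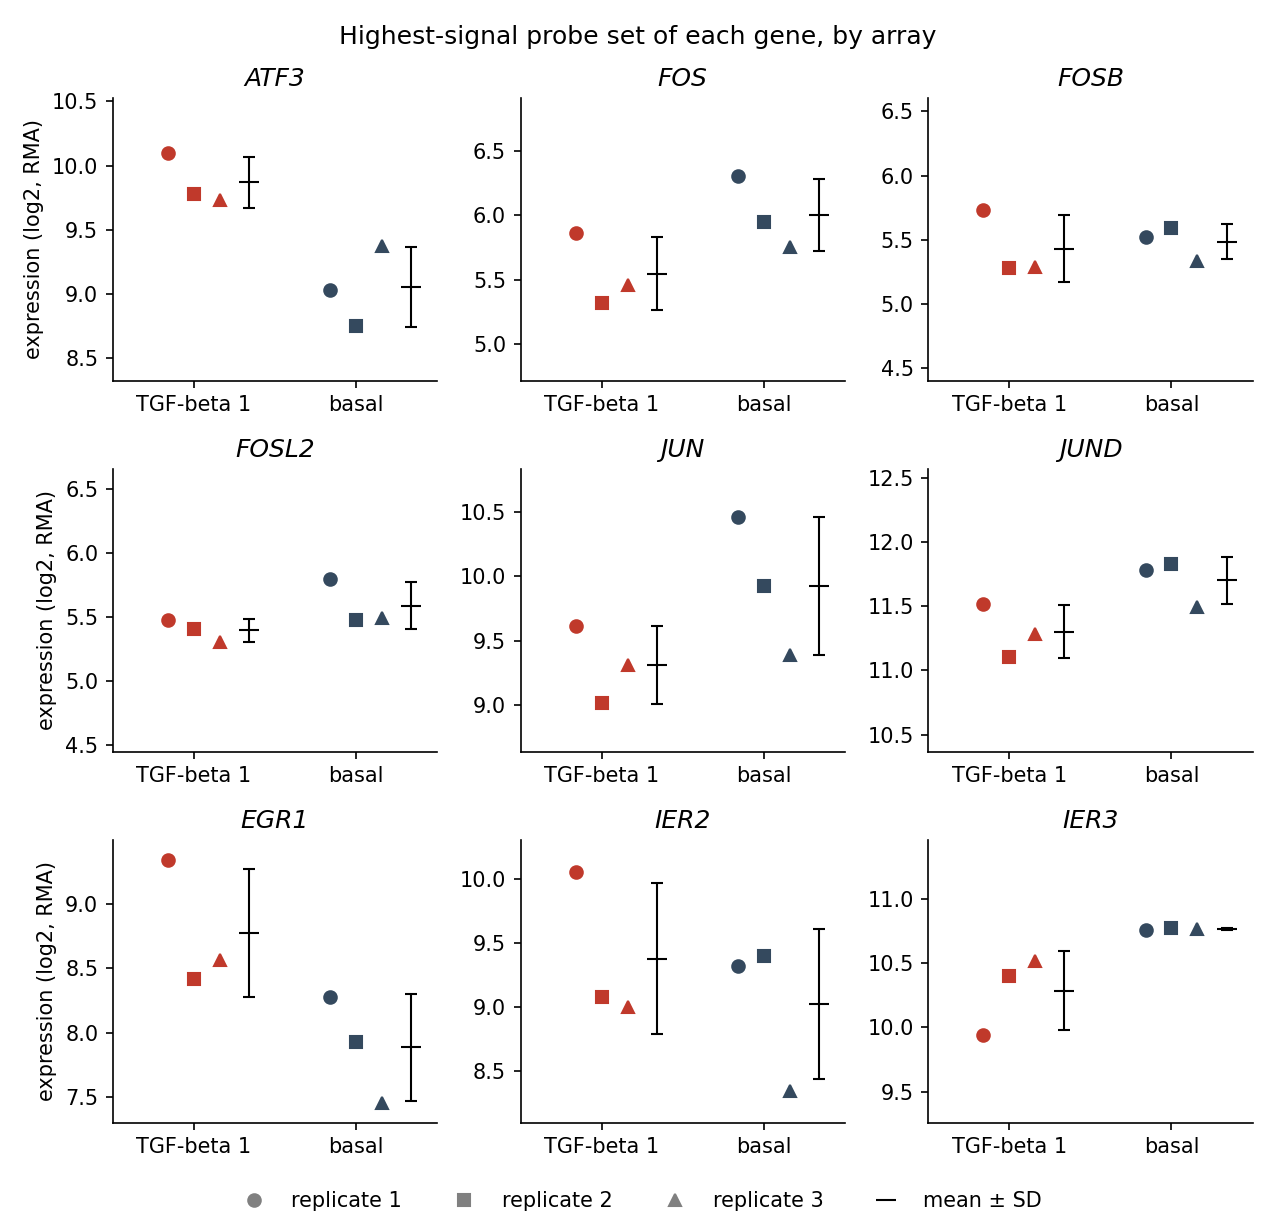
Each panel shows the probe set with the highest mean signal of 1 gene, as log2 expression on the vertical axis, with treated arrays on the left and basal arrays on the right. Marker shapes give the replicate number and the bars the mean ± SD of 3 arrays. All panels span the same number of log2 units. The treated arrays of ATF3 and EGR1 lie above all basal arrays and those of IER3 below them, while the groups overlap in the other 6 genes.

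ATF3 had the smallest p-value of the 22. It stood at 10.10, 9.78 and 9.73 log2 in treated arrays 1, 2 and 3, against 9.03, 8.75 and 9.38 log2 in basal arrays 1, 2 and 3. All treated arrays lay above all basal arrays, and the nearest pair was treated 3 and basal 3. The mean was 9.87 ± 0.20 in treated and 9.05 ± 0.31 in basal cultures (log2, SD, n = 3 each). The log2 difference was 0.81 (SE 0.19), a ratio of 1.76 with a 95% interval of 1.27 to 2.43, and the limma adjusted p = 0.139. Within the first array set the difference was 1.21 and within the second 0.38, both upward. A fit with the array sets as a block, added once the data had been seen, gave 0.79 (limma adjusted p = 0.0809). Without basal 3, the highest basal array for ATF3, it was 0.98 and passed (limma adjusted p = 0.0299), but 8.38% of all probe sets passed in that fit, in which the remaining basal arrays all belong to the first array set. On every array ATF3 lay above the 86th percentile of the probe sets.

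EGR1 had the largest log2 difference among the 3 probe sets with treated arrays apart above basal. Its probe set 1 read 9.35, 8.42 and 8.57 log2 in treated arrays 1 to 3 and 8.27, 7.93 and 7.45 log2 in basal arrays 1 to 3. Treated 1 was the highest array and basal 3 the lowest, and the gap between treated 2 and basal 1 was the smallest. The log2 difference was 0.89 (SE 0.32), a ratio of 1.86 with a 95% interval of 1.08 to 3.17 (limma adjusted p = 0.296). The spread within each group, 0.50 in treated and 0.41 in basal cultures (SD, log2, n = 3 each), followed the array sets. The differences within the sets were 1.24 and 1.04, and the block fit gave 1.14 (SE 0.13, limma adjusted p = 0.0123). EGR1 probe set 2 did not share this: it read 6.01, 5.70 and 5.50 log2 in treated and 5.91, 5.96 and 5.51 log2 in basal arrays, a difference of -0.06 (95% interval -0.51 to 0.40). It lay close to the array median, between the 42.7th and the 51.8th percentile of the arrays.

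FOS, the founding member of the Fos family, showed no separation of the groups. Its probe set 1 stood at 5.86, 5.32 and 5.46 log2 in treated arrays and at 6.31, 5.95 and 5.75 log2 in basal arrays. Treated 1 lay above basal 3, so the groups overlapped. It differed by -0.46 log2 (95% interval -0.95 to 0.04, limma adjusted p = 0.408), with -0.27 and -0.36 within the array sets and -0.30 without basal 1. FOS probe set 2 had the same sign at -0.14 (95% interval -0.43 to 0.15). It lay below the median on all arrays, and RMA values carry no detection call, so whether it was detected is unknown.

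FOSB, a Fos protein of prolonged stimulation, gave different readings with its 2 probe sets, both below the array median on all arrays. On probe set 2 treated arrays read 5.61, 4.97 and 4.94 log2 and basal arrays 4.92, 4.80 and 4.50 log2. The groups were apart, but treated 3 and basal 1 differed by less than the spread within either group. Their log2 difference was 0.43 (SE 0.22, limma adjusted p = 0.478), with 0.74 and 0.46 within the array sets, and the block fit gave 0.60 (limma adjusted p = 0.0312). Without treated 1 it was 0.21. On probe set 1 treated arrays read 5.73, 5.28 and 5.28 log2 and basal arrays 5.53, 5.59 and 5.33 log2, a difference of -0.05 (95% interval -0.44 to 0.33). FOSL2, the Fos-related antigen that is less tied to acute stimulation, had overlapping groups throughout. Its 3 probe sets had log2 differences of -0.19, 0.11 and 0.16 and intervals that together ran from -0.49 to 0.45. All 3 lay below the array median on all arrays.

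**Figure D2:**
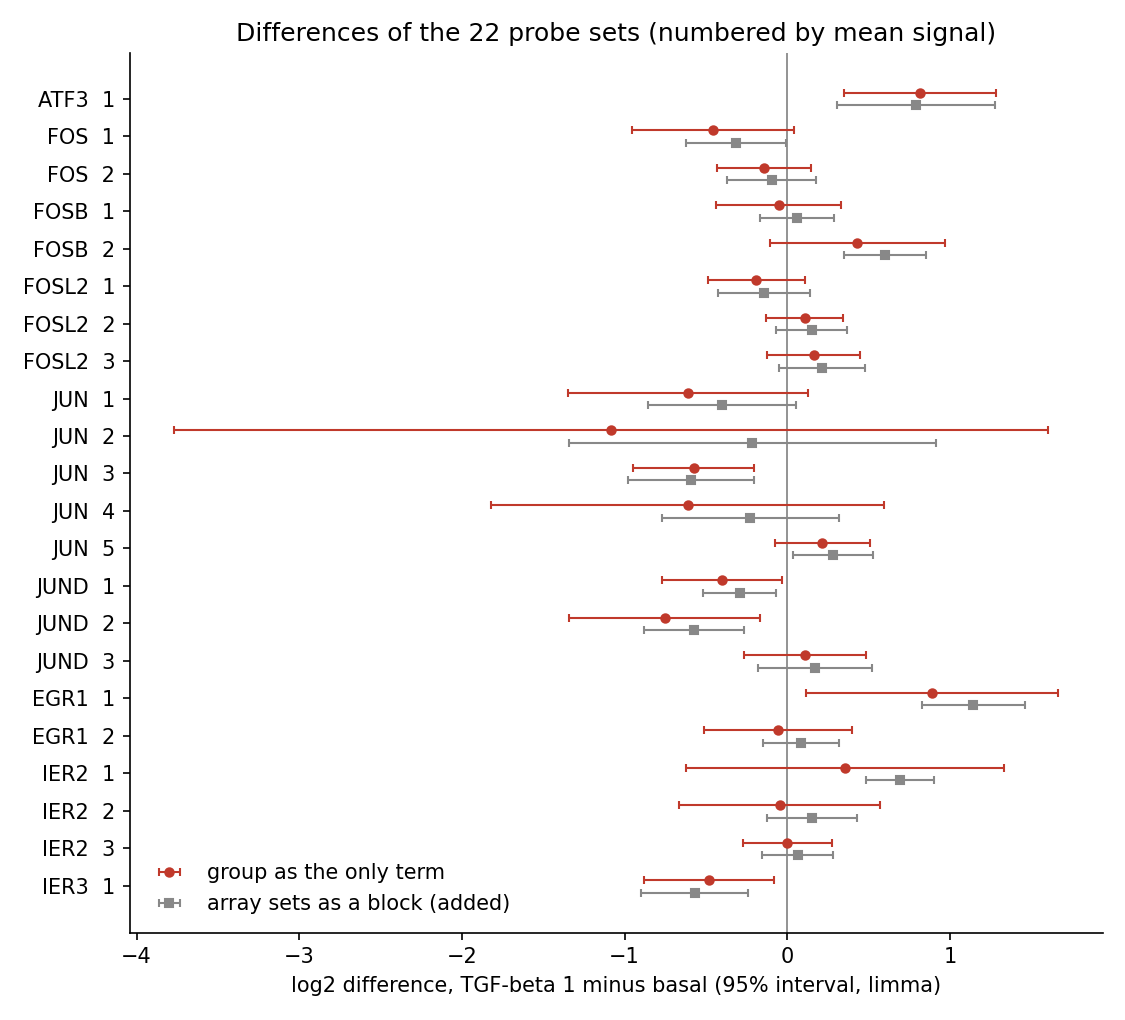
Each row is 1 of the 22 probe sets, with the log2 difference of treated minus basal cultures on the horizontal axis and its 95% interval from limma. Round points have group as the only term and square points the fit that adds the array sets. Numbers after the symbols rank the probe sets of a gene by mean signal. With group as the only term 16 of 22 intervals cover 0.

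Most JUN and JUND probe sets had a lower mean in treated than in basal cultures, and none of them passed. JUND, the Jun protein that most cells keep at a steady level, read 11.52, 11.10 and 11.28 log2 in treated and 11.78, 11.83 and 11.49 log2 in basal arrays on probe set 1. Treated 1 lay just above basal 3, and the other arrays were apart. The groups differed by -0.40 log2 (SE 0.15), a ratio of 0.757 with a 95% interval of 0.586 to 0.979 (limma adjusted p = 0.324). Within the array sets it was -0.29 and -0.30, so the size was nearly the same in both. JUND probe set 2 read 5.42, 4.97 and 5.06 log2 in treated and 6.28, 5.97 and 5.45 log2 in basal arrays. There the groups were apart by a narrow margin between treated 1 and basal 3, and the log2 difference was -0.75 (SE 0.24, limma adjusted p = 0.251). Without basal 3 it was -0.98 and passed (limma adjusted p = 0.0388), and the block fit gave -0.57 (limma adjusted p = 0.0585). Over the 6 arrays these probe sets correlated at 0.948, a description over arrays that share groups and array sets. JUND probe set 3, below the array median throughout, stood at 0.11 (95% interval -0.26 to 0.48).

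JUN, the main partner of the Fos proteins, had 5 probe sets, and 4 of them had negative differences. Probe set 1 read 9.62, 9.01 and 9.31 log2 in treated and 10.46, 9.93 and 9.39 log2 in basal arrays. Treated 1 lay above basal 3, so the groups overlapped, and the log2 difference was -0.61 (95% interval -1.35 to 0.12, limma adjusted p = 0.459). Without basal 1 it was -0.34. Only JUN probe set 3 had its groups apart, at 5.69, 5.95 and 6.10 log2 in treated and 6.70, 6.45 and 6.33 log2 in basal arrays. Its log2 difference was -0.58 (SE 0.15), a ratio of 0.671 with a 95% interval of 0.519 to 0.867 (limma adjusted p = 0.173, and 0.0956 in the block fit).

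JUN probe set 2 was among the most variable of the whole array. It read 7.55, 5.37 and 6.14 log2 in treated arrays, against 9.09, 8.06 and 5.17 log2 in basal arrays. The basal cultures alone thus covered its full span, since basal 1 was the highest and basal 3 the lowest of all 6 arrays. That span was 3.92 log2, and only 38 of 24016 probe sets (0.158%) had one at least as wide. The log2 difference was -1.08 with a 95% interval of -3.77 to 1.60, and with 1 array left out it ran from -0.26 without basal 1 to -2.22 without basal 3. It turned from -1.02 within the first array set to 0.59 within the second. JUN probe set 4, at 5.57, 4.76 and 4.86 log2 in treated and 6.45, 5.92 and 4.64 log2 in basal arrays, followed the same order of high and low sets (Pearson r = 0.989 over the 6 arrays). Its log2 difference of -0.61 was -0.22 without basal 1 and -1.13 without basal 3, and likewise turned from -0.62 to 0.16 between the sets. JUN probe set 5, below the array median throughout, stood at 0.22 (95% interval -0.08 to 0.51).

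**Figure D3:**
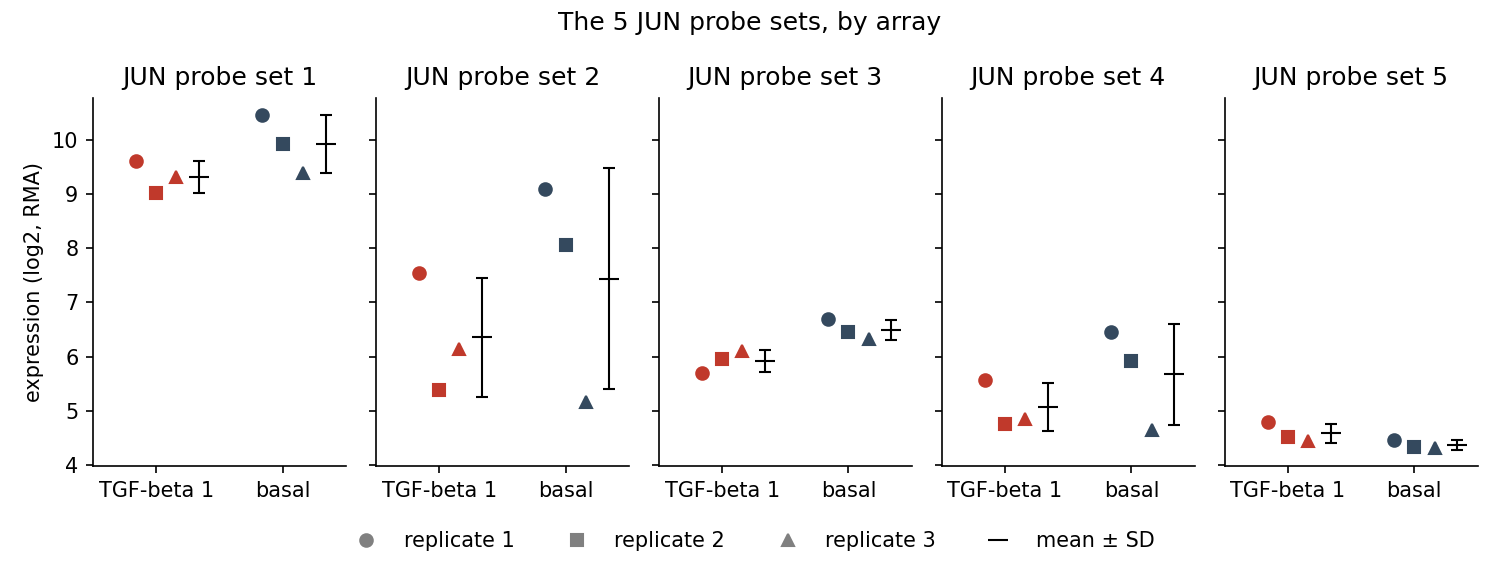
The 5 panels show the JUN probe sets on a shared vertical axis of log2 expression, treated arrays on the left and basal arrays on the right, with the mean ± SD of 3 arrays. Basal 3 lies far below basal 1 and basal 2 on probe sets 2 and 4, and only probe set 3 has its groups apart.

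IER3 was the most even member among basal cultures. It stood at 9.94, 10.40 and 10.52 log2 in treated arrays and at 10.76, 10.78 and 10.77 log2 in basal arrays. All treated arrays lay below all basal arrays, treated 1 by the widest margin. The mean was 10.29 ± 0.31 in treated and 10.77 ± 0.0083 in basal cultures (log2, SD, n = 3 each). The log2 difference was -0.48 (SE 0.16), a ratio of 0.716 with a 95% interval of 0.543 to 0.943 (limma adjusted p = 0.275). It was -0.83 and -0.31 within the array sets, and -0.57 in the block fit (limma adjusted p = 0.0707). Without treated 1 it was -0.31.

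The reading of IER2 depended on the array sets. Its probe set 1 read 10.05, 9.08 and 8.999 log2 in treated and 9.32, 9.40 and 8.35 log2 in basal arrays. Treated 2 and treated 3 lay below basal 1 and basal 2, yet above basal 3, so the groups overlapped. With group as the only term the log2 difference was 0.36 (SE 0.40, 95% interval -0.62 to 1.33, limma adjusted p = 0.764). It was 0.018 without treated 1 or without basal 3, and 0.54 without treated 3 or without basal 2. Within each array set it was 0.69. The block fit, added once the data had been seen, averages the sets and so gave 0.69 as well (SE 0.09, limma adjusted p = 0.0148). IER2 probe set 2 stood at -0.05 (95% interval -0.67 to 0.57). IER2 probe set 3 differed by -0.0013 (95% interval -0.27 to 0.27) and lay no higher than the 5.24th percentile of any array.

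Taking all 22 probe sets, the differences within both array sets had the same sign in 17, with 9 upward and 8 downward, beside 63.1% same-signed over all probe sets. The 5 others were 2 of JUN and 1 each of FOSB, JUND and IER2. In the block fit 3 of 22 passed, those of EGR1, IER2 and FOSB named above, all upward, where 5.61% of all probe sets passed in either direction and 2.73% upward. The array sets were defined from these data and this count is no independent test. Treated 1 was the highest treated array in 19 of the 22, beside 51.1% of all probe sets. Basal 3 was the lowest basal array in 17 of the 22, beside 50.7%. The median span over the 6 arrays was 0.83 log2 for the 22 and 0.51 log2 for all probe sets.

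**Figure D4:**
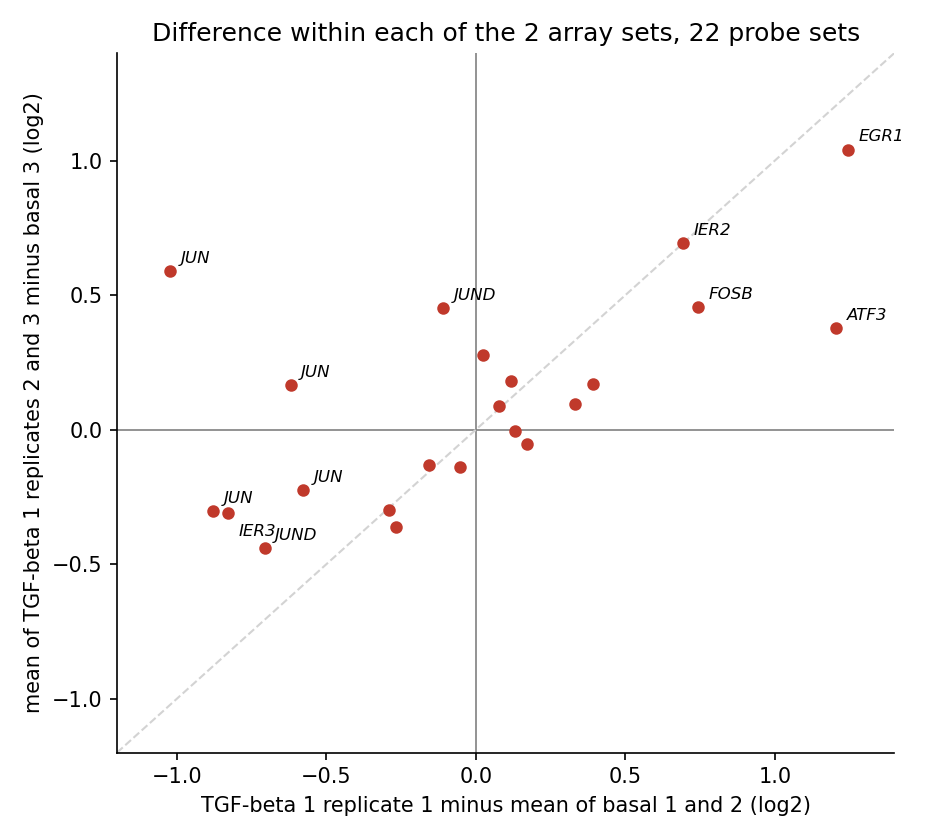
Each point is 1 of the 22 probe sets. The horizontal axis gives the log2 difference of treated 1 minus the mean of basal 1 and basal 2, and the vertical axis that of the mean of treated 2 and treated 3 minus basal 3. The dashed line marks equal differences. EGR1, IER2, FOSB and ATF3 lie in the upper right, JUND, IER3 and JUN in the lower left, and 2 JUN probe sets and 1 of JUND in the upper left.

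Correlations of the members' brightest probe sets over the 6 arrays are given as a description, because the arrays share groups and array sets. FOS, JUN and JUND had Pearson r of 0.966 between FOS and JUN, 0.922 between FOS and JUND and 0.901 between JUN and JUND. FOSL2 stood at 0.877 with FOS and 0.853 with JUN. EGR1 stood at 0.826 with IER2, 0.697 with ATF3 and -0.896 with IER3, but ATF3 and IER2 stood at only 0.236 with each other. FOSB stood at 0.672 with FOS, 0.682 with JUND and 0.821 with IER2. EGR1 and FOS were nearly unrelated (r = -0.09).

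Of 3571 other named genes that varied over the arrays, those most like each member were found by Pearson correlation over the 6 arrays. BMP2 and CSTF2 were most like ATF3 (both r = 0.990), and ITGA2 and DNM3 most like EGR1 (r = 0.997 and 0.994). THBD and OLFML3 followed IER3 (r = 0.996 and 0.990), and ADCY2 and MAFF followed IER2 (r = 0.991 and 0.990). Closest to JUN were CAPN1 and DOK1 (r = 1.000 and 0.999), to JUND ITGA3 and ANGPT2 (r = 0.995 and 0.991), and to FOS BLCAP and UBXN1 (r = 0.992 and 0.990). MARK1 and N4BP2L1 were closest to FOSB (r = 0.997 and 0.995) and OIT3 and TNP2 to FOSL2 (r = 0.979 and 0.973). The SD minimum of 0.3 applied to the other genes only, and FOSB, FOSL2 and JUND themselves had SDs of 0.19, 0.17 and 0.28. The FOSB and FOSL2 probe sets also lay below the array median on all arrays. With 6 arrays and this many candidates, values this high say little by themselves.

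The genes around these factors were read from the same fit, with the brightest probe set of each gene. Of 93 measured genes in 6 lists, 2 rose and none fell, where 1.02% of all genes were called, 0.371% upward and 0.644% downward. At an unadjusted p under 0.05 were 33 of the 93, beside 18.4% of all genes. The lists were chosen with earlier results of these data known, so these counts are no independent test. VEGFA, the angiogenic growth factor and an AP-1 target, rose. It read 9.90, 8.59 and 8.71 log2 in treated and 6.04, 6.23 and 6.17 log2 in basal arrays, a log2 difference of 2.92 (SE 0.35, limma adjusted p = 0.0437). DDIT4, a stress-induced inhibitor of mTOR, read 11.89, 11.70 and 11.75 log2 in treated and 10.54, 10.37 and 10.19 log2 in basal arrays, and rose by 1.41 log2 (SE 0.12, limma adjusted p = 0.0286). In both genes all treated arrays lay above all basal arrays. Neither passed without treated 2, treated 3, basal 1 or basal 2. The count over the 6 lists was 15 without basal 3 and 25 in the block fit.

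Among 13 other AP-1 and leucine zipper factors none passed (limma, 2 at an unadjusted p under 0.05, beside 18.4% of all genes). Their median log2 difference was 0.35, beside -0.03 over all genes. JUNB, the Jun protein that TGF-beta induces directly through SMADs, had a positive difference, unlike most JUN and JUND probe sets. JUN probe set 5 and JUND probe set 3 were positive too, at 0.22 and 0.11. JUNB read 10.15, 9.46 and 9.36 log2 in treated and 8.51, 8.60 and 7.68 log2 in basal arrays, with all treated arrays above all basal arrays. Its log2 difference was 1.39 (SE 0.32, limma adjusted p = 0.137), and 1.66 in the block fit (limma adjusted p = 0.0036). The block fit was added once the data had been seen. In it 5 of the 13 factors passed, all upward, beside 5.61% of all probe sets in either direction and 2.73% upward. With group as the only term CREB1, a cAMP-responsive activator, stood at 0.39 and ATF4, the main factor of the integrated stress response, at 0.35. ATF2, a kinase-activated partner of JUN, stood at 0.50. Of these genes' limma adjusted p-values with group as the only term the smallest was 0.234, that of CREB1.

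None of the 21 other immediate and delayed early genes passed either (limma, 7 at an unadjusted p under 0.05, beside 18.4% of all genes). Their median was -0.05. The polo-like kinase PLK2 stood at -1.33 (SE 0.26, limma adjusted p = 0.0978) and TSC22D1, a TGF-beta-responsive leucine zipper protein, at -0.75. SGK1, a serum-induced kinase, stood at 1.17 (SE 0.26, limma adjusted p = 0.124) and KLF10, a TGF-beta-inducible zinc finger factor, at 0.44.

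In the MAP kinase cascade and its SRF factors 0 of 18 passed (limma, 6 at an unadjusted p under 0.05, beside 18.4% of all genes). Their median was -0.13. MAPK14, the p38 alpha kinase, stood at -0.51 (SE 0.08, limma adjusted p = 0.0713) and MAP2K1, the kinase that activates ERK, at 0.71 (SE 0.17, limma adjusted p = 0.146). ARAF, a Raf kinase, and MAP2K6, which activates p38, stood at -0.49 and -0.64. SRF, the serum response factor that drives FOS and EGR1, stood at 0.01 (SE 0.15). Of the phosphatases and feedback inhibitors that end MAP kinase signals 0 of 9 passed (limma, 7 at an unadjusted p under 0.05, beside 18.4% of all genes). Their median was -0.28. DUSP3 and DUSP1, both phosphatases, stood at -1.14 and -0.80, and SPRY2 and SPRED1, inhibitors of the Ras pathway, at 0.90 and 0.45. SPRY1, a relative of SPRY2, went the other way at -0.89 (SE 0.30).

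Of 19 AP-1 and EGR1 targets VEGFA alone passed, and their median was 0.36. MMP9, a gelatinase, stood at 2.10 (SE 0.39, limma adjusted p = 0.0937), the adhesion receptor ICAM1 at 0.72 and the protease inhibitor TIMP1 at -0.77. Of 13 stress genes linked to ATF4 and ATF3 DDIT4 alone passed, with a median of 0.04. The chaperone HSPA5 stood at 1.05 (SE 0.16, limma adjusted p = 0.0602), and TRIB3 and CHAC1, both induced through ATF4, at 1.24 and 0.86.

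**Figure D5:**
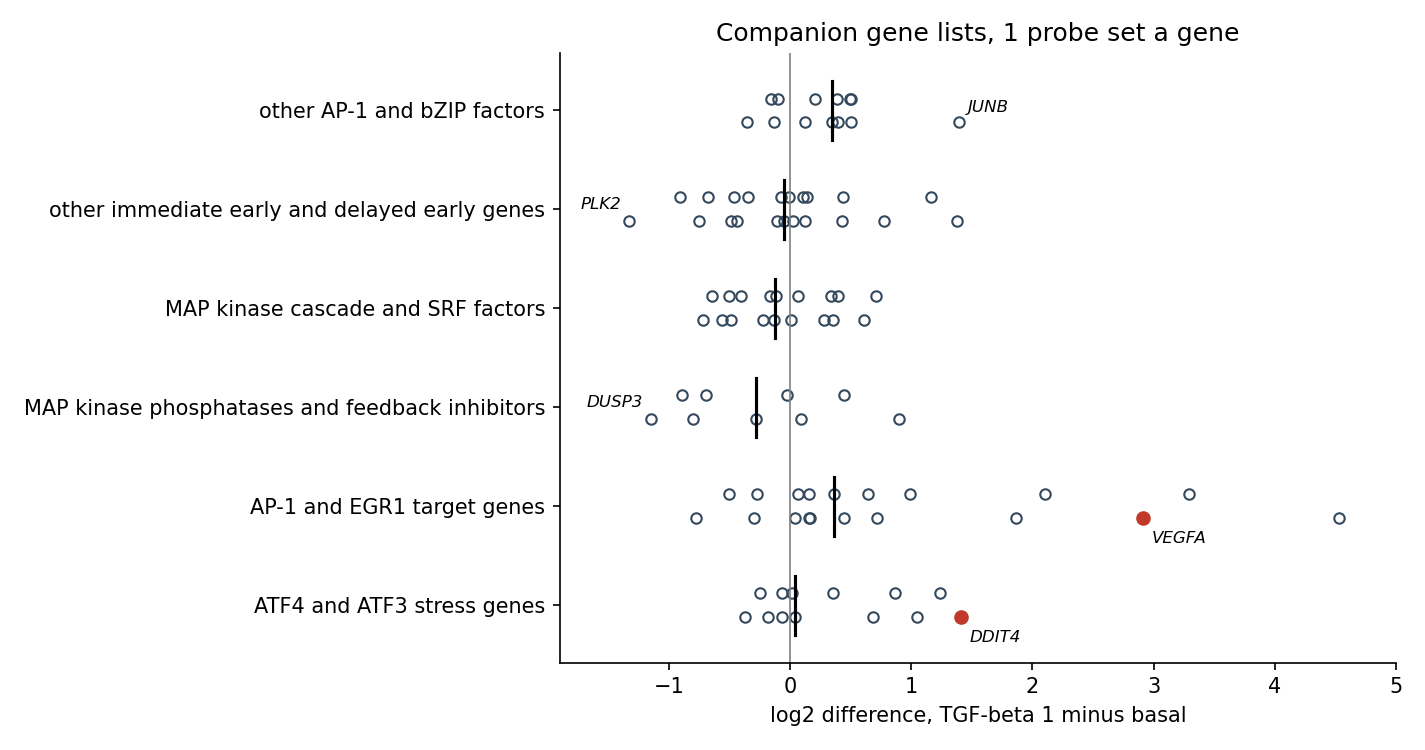
Each circle is 1 gene of 6 lists around the immediate early genes, with the log2 difference of treated minus basal cultures on the horizontal axis. Filled circles mark the 2 genes past the limma threshold, VEGFA and DDIT4, vertical bars the median of each list, and JUNB, PLK2 and DUSP3 are labelled as the member with the smallest p of their list. The medians lie between -0.28 and 0.36.

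Markers of other cells are given beside these values. The summed linear signal of 6 smooth muscle markers, as log2, lay between 12.08 and 12.46 in treated and between 10.35 and 10.68 in basal arrays. TAGLN, an actin-binding protein, was the 1 of 6 that passed, with a log2 difference of 2.19 (limma adjusted p = 0.0273), while MYH11 and CNN1 stood at -0.10 and 0.09. For 6 fibroblast markers the sum lay between 10.62 and 11.00 in treated and between 10.92 and 11.07 in basal arrays, and none passed (limma, 0 at an unadjusted p under 0.05). For 6 leukocyte markers it lay between 7.59 and 8.10 in treated and between 7.65 and 7.74 in basal arrays, and none passed (limma, 0 at an unadjusted p under 0.05). For 9 endothelial markers it lay between 13.76 and 14.12 in treated and between 13.68 and 14.14 in basal arrays. None of these 9 passed (limma, 5 at an unadjusted p under 0.05, beside 18.4% of all genes). The groups were apart in 7, beside 23.3% of all genes, with 3 higher and 4 lower in treated cultures. PECAM1, a junction adhesion molecule, stood at -0.52 and EMCN, a surface sialomucin, at 0.82. The part of these cells in the differences of the immediate early genes was not tested. In such bulk cultures fewer cells that carry a transcript and less of it per cell cannot be told apart.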

How the data were processed

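An Affymetrix bovine array measured each of 3 treated and 3 basal cultures, from an input of 4 µg of total RNA and with biotin labelling, per the labels' protocols. The authors deposited log2 expression per probe set. The submitters' processing notes name RMA and affy, whose versions are not given in the sources used here. RMA corrects background and quantile-normalizes the arrays, which compresses differences near background, and it gives no detection call. Array medians lay between 5.88 and 5.92 log2, and precision is limited by the small number of arrays. No sequence or coordinate is given.

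Of 24128 probe sets 112 controls were left out. The annotation gave 1 symbol to 13292 probe sets, several to 86 and none to 10638, and 13263 matched the RefSeq gene table of ARS-UCD2.0, used for names only. All 24016 were fitted with limma 3.58.1 in R 4.3.3 (group as the only term, 4 residual and 1.97 prior degrees of freedom), with two-sided p-values adjusted by Benjamini-Hochberg and a threshold of 0.05. Figures used matplotlib 3.10.9. Data of 24016 probe sets were also simulated with 3 arrays per group. Of changes of 1 log2 49.3% were recovered there, and of changes of 2 log2 83%. No array sets are among the settings given for the simulation. The immediate early genes also varied more, with a median span over the arrays of 0.83 log2 against 0.51 log2 for all probe sets. The rates therefore cannot say how likely a change of either size was to pass in these genes.

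The members and lists were chosen with earlier results of these data known. The naming rule took every member probe set, the 4 genes of each list with the smallest p and any past the threshold, and the 2 genes most like each member (SD of at least 0.3 over the arrays). SRF, SPRY1, MYH11, CNN1, TAGLN, KDR, LUM, DPT, PECAM1 and EMCN were named outside it, after their values were seen. List genes without a probe set of their name here were not analysed. Alternatives were a further quantile normalization, median centring, limma-trend, robust eBayes, filters on mean expression (25th percentile or median), a block for the replicate number, each array left out, thresholds of 0.1 and 0.01, 1 probe set a gene, and, added after seeing the data, the array sets as a block.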

Additional observations from a re-analysis of the deposited data

How the results depend on the processing

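The count of called probe sets among the 22 stayed at 0 under the further quantile normalization, median centring, limma-trend, robust eBayes, both filters, both thresholds, 1 probe set a gene and the replicate block, with 4 to 9 at an unadjusted p under 0.05 by limma. It was 3 with a block for the array sets. It ran from 0 to 2 over the arrays left out, with 2 (ATF3 and JUND) without basal 3. The filter at the 25th percentile kept 20 of the 22 and that at the median 9. Over all 24016 probe sets the count of 158 was 100 after the further quantile normalization, 87 with limma-trend, 0 with the replicate block (limma, 4450 at an unadjusted p under 0.05), 543 and 2 at thresholds of 0.1 and 0.01 and 1348 with that block. Leaving out 1 array gave 1 to 2012 (1 without treated 2, treated 3 or basal 2, 2 without basal 1, 12 without treated 1 and 2012 without basal 3). The count of 2 among the 93 list genes was 0 with the replicate block (39 at an unadjusted p under 0.05) and at the 0.01 threshold (33), 7 at the 0.1 threshold and 25 with a block for the array sets. With 1 array left out it ran from 0 (without treated 2, treated 3, basal 1 or basal 2) to 15 (without basal 3).

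Of the 22 log2 differences, 5 near 0 turned sign. In the fit with the array sets FOSB probe set 1 stood at 0.059, EGR1 probe set 2 at 0.082, and IER2 probe sets 2 and 3 at 0.15 and 0.063. Over the arrays left out these ran from -0.20 to 0.023, -0.20 to 0.062, -0.29 to 0.12 and -0.088 to 0.067, and JUND probe set 3 from -0.044 to 0.21. The adjusted p of ATF3 ran from 0.0299 to 0.379 over the alternatives other than the array sets, and that of EGR1 probe set 1 from 0.138 to 0.614. That of IER2 probe set 1 ran from 0.508 to 0.987, that of FOSB probe set 2 from 0.22 to 0.751 and that of JUND probe set 2 from 0.0388 to 0.624. The cause was not tested. The labels do not say whether treated and basal arrays with the same replicate number share a culture. Their deviations from the group means correlated at 0.67, -0.45 and 0.69 over probe sets. These values follow the array sets too, so they cannot decide whether the arrays are paired.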
